A study of Mus musculus with 69 samples.

Results

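The comparison described here is F1 hybrid dorsal skin at 1008 h against untreated F1 skin (0 h). It rests on 10 of the 69 arrays of the series: every array that the labels give as F1, exposed to TPA and sampled at 1008 h (6 arrays), against every array given as F1 and untreated (4 arrays). All genes with 1 symbol on the array, 18820 in number, were tested. TPA (12-O-tetradecanoylphorbol-13-acetate) is a phorbol ester, painted on the skin in acetone, and the F1 mice are offspring of FVB/N, an inbred laboratory strain, and Spret/Ei, an inbred strain of the wild species Mus spretus.

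The mice were aged to 8 weeks, and the labels' protocol describes shaved backs treated once after a rest of days. Sampling at 1008 h is not among the times of that protocol, and the series is described elsewhere as one of replicate exposure, so how often the 1008 h skin was painted is not settled by the sources used here. The untreated mice differ from the 1008 h mice in TPA, in the acetone vehicle, in time since shaving and possibly in age at sampling, and without vehicle arrays these cannot be told apart. The sex of the mice and the time of day of sampling are not given. Nothing in the labels ties the arrays to separate mice, so p-values measure only the spread between these arrays. Whole skin is a mixture, in which fewer cells of a type and less RNA per cell cannot be told apart.

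TPA activates protein kinase C and is the classical tumour promoter of mouse skin, where it causes inflammation and thickening of the epidermis. Keratinocytes activated in this way switch on the stress keratins Krt6 and Krt16, small proline-rich proteins (Sprr) that are crosslinked into the cornified envelope, and alarm signals such as the S100 proteins and the IL-36 cytokines. Hair follicles in the same tissue cycle between growth, when hair keratins are made in quantity, and rest.

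Values are log2 expression, so that a difference of 1 is a doubling, and ± after a log2 change is its standard error in a limma fit of the 10 arrays with a term for the labelled batch. Arrays 1 and 2 of the 1008 h group were batch 3 and arrays 3, 4, 5 and 6 were batch 2, while untreated arrays 1 and 3 were batch 2 and untreated arrays 2 and 4 were batch 3. Calls required a p under 0.05 after Benjamini-Hochberg adjustment and a log2 change of at least 1 in size. Keratinocyte identity was plain in all arrays: Krt5 lay between 12.34 and 12.47 at 1008 h and between 12.25 and 12.50 untreated. The sex-linked genes did not set arrays apart, as Xist lay between 11.42 and 11.84 at 1008 h and between 11.75 and 12.43 untreated, and Eif2s3y between 2.67 and 2.90 at 1008 h and between 2.65 and 2.85 untreated. One array in each group correlated better with the other group over all genes. The median correlation of 1008 h array 6 was 0.985 with the other 1008 h arrays and 0.988 with the untreated arrays, and that of untreated array 1 was 0.981 with the 1008 h arrays and 0.977 with the other untreated arrays. The other 8 arrays correlated better with their own group. Results are therefore also given without each of these arrays.

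At 1008 h, 94 genes were higher than in untreated F1 skin (0.499% of 18820 genes) and 38 were lower (0.202%), 132 in all (0.701%). With or without a call, 9401 genes had a higher estimate at 1008 h and 9419 a lower one. Among called genes with ordinary symbols and no overlap between groups, the 15 largest rises included protease inhibitors, cornified envelope proteins and a keratinocyte cytokine. The falls included clock genes and immediate early genes. Of the 132, 81 had all 6 arrays beyond all 4 untreated arrays on the same side; over all genes 624 had all 6 above (3.32%) and 444 all 6 below (2.36%). A model of all 66 assigned arrays, with more residual degrees of freedom, called 151 genes (0.802%), of which 104 were shared with the 132.

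The number of calls rested on single arrays. In the fit of 10 arrays, leaving out 1008 h array 1, 2, 4 or 5, or untreated array 3 or 4, left 0 called genes by limma, with 3160 to 4287 genes still at an unadjusted p under 0.05 and lowest adjusted p between 0.0595 and 0.0993. Leaving out untreated array 2 left 1 called gene, whereas 280 were called without untreated array 1, 124 without 1008 h array 3 and 296 without 1008 h array 6. All 132 genes kept their sign in each of these fits. For the 81 with no overlap between groups no such omission can change the sign. The others were called on these same arrays, so the kept signs test nothing. In the model of 66 arrays the same omissions left 63 to 255 calls, and 52 genes were called in it under every one of the 10 omissions, 46 of them also among the 132. Batch 2 alone gave 0 calls by limma (1637 genes at an unadjusted p under 0.05) and batch 3 alone gave 961.

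Several of the largest rises were in genes of the outer epidermis. Il1f6, which encodes the cytokine IL-36 alpha, read 11.71, 11.73, 10.05, 11.50, 11.27 and 9.23 in 1008 h arrays 1 to 6, against 8.19, 7.85, 8.62 and 8.22 in untreated arrays 1 to 4. All 6 arrays at 1008 h were above all 4 untreated ones, with arrays 3 and 6 the nearest to them. The log2 change was 2.78 ± 0.44 (limma, adjusted p = 0.0266).

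Chil1, a chitinase-like glycoprotein released in inflamed tissue, read 11.60, 11.34, 10.03, 11.53, 11.44 and 9.12 at 1008 h, against 8.68, 6.78, 7.68 and 7.41 untreated. The groups did not overlap, though 1008 h array 6 was closer to untreated array 1 than to any array of its own group. The change of Chil1, 3.22 ± 0.53 (limma, adjusted p = 0.0266), was the largest rise of a gene with an ordinary symbol and no overlap. Klk13, a kallikrein-related serine protease, changed by 2.94 ± 0.51 (adjusted p = 0.0285), and Serpinb3a, an inhibitor of serine and cysteine proteases, by 2.70 ± 0.64 (adjusted p = 0.0475).

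Several rises were of proteins built into or attached to the cornified layer. Sprr2a1, a small proline-rich envelope protein, read 10.96, 10.95, 9.44, 11.30, 10.90 and 9.04 at 1008 h and 8.48, 7.44, 7.36 and 8.13 untreated, a change of 2.65 ± 0.44 (limma, adjusted p = 0.0266) with no overlap. Its relative Sprr2b changed by 2.31 ± 0.42 (adjusted p = 0.0347) and repetin (Rptn), an envelope precursor, by 2.29 ± 0.48 (adjusted p = 0.0398). Csta3, a member of the cystatin A family of cysteine protease inhibitors, rose by 2.26. Sprr2 genes are near copies of each other, so that a probe set may read more than 1 of them.

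The other 7 of the 15 largest rises among called genes whose groups did not overlap were Igfl3, an insulin growth factor-like ligand (2.62), the adhesion receptor Adgrg7 (2.33), lipocalin 2 (Lcn2, 2.24), which binds bacterial siderophores, lactoperoxidase (Lpo, 2.24), the retinol-binding protein Rbp2 (2.22), the phospholipase Pla2g4e (2.18) and the secreted ribonuclease Ang2 (2.15). Their adjusted p-values lay between 0.0266 and 0.0420 and each had all 6 arrays above all 4. The plot of values by array shows the same pattern in Il1f6, Sprr2a1 and Cxcr2, with arrays 1, 2, 4 and 5 high and arrays 3 and 6 lower.

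**Figure D1:**
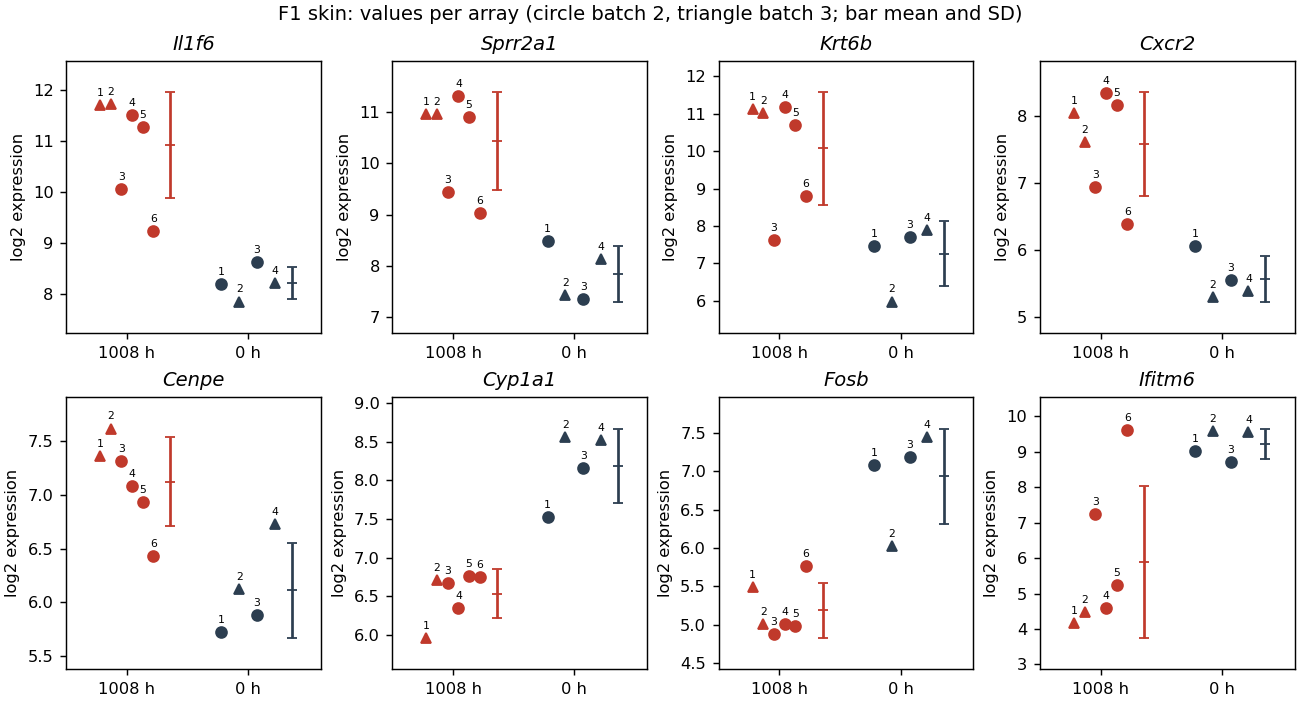
Log2 expression (vertical axis, a separate range for each gene) of 8 genes in each F1 array, with 1008 h (red) left of 0 h (dark blue), numbers giving the array, circles batch 2, triangles batch 3, and bars the mean and SD over 6 and 4 arrays. Il1f6, Sprr2a1 and Cxcr2 were above all untreated arrays at 1008 h, Cyp1a1 and Fosb below all of them, and Ifitm6 ran from 4.17 to 9.60 within the 1008 h group.

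As a group, the stress keratin, Sprr and alarmin genes were shifted upward, with a median log2 change of 1.97 over 23 measured genes, against 0.00 over all genes. Of them 22 were higher, as were 9401 of all 18820 genes. The test was passed by 6 (0.499% of all genes rose): Il1f6, Sprr2a1, Krt6b, S100a9 and, named after their values were seen, Sprr2e and the envelope precursor involucrin (Ivl). In the model of 66 arrays 12 passed. The shift was unequal between batches, 1.02 in batch 2 and 3.05 in batch 3, and the list score, which is the mean of the members' values centred on all arrays shown, ran from -0.34 to 1.39 at 1008 h and from -1.69 to -0.47 untreated. Batch 2 was itself mixed at 1008 h. Its arrays 4 and 5 scored 1.218 and 0.965, near the 1.392 and 1.123 of batch 3 arrays 1 and 2. Its arrays 3 and 6 scored -0.325 and -0.342.

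Krt6b, a keratin of injured and thickened epidermis, read 11.13, 11.01, 7.63, 11.17, 10.69 and 8.79 at 1008 h, against 7.46, 5.98, 7.70 and 7.88 untreated. Array 3 lay below untreated arrays 3 and 4, so the groups overlapped, and the other 5 arrays were above all untreated ones. The change was 2.91 ± 0.70 (limma, adjusted p = 0.0481). Stfa3, a stefin that inhibits cathepsins (2.92 ± 0.75, adjusted p = 0.0550), and Sprr2d (2.66 ± 0.67, adjusted p = 0.0536) had changes as large but missed the threshold.

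Of 18 genes of terminal differentiation, 3 rose (0.499% of all genes rose), with a median over the list of 0.21. They were Rptn, Lce1g, a late cornified envelope protein (1.31 ± 0.32, adjusted p = 0.0481), and caspase 14 (Casp14), a protease that processes filaggrin (1.13 ± 0.24, adjusted p = 0.0398). Of 11 basal keratinocyte genes, 9 were lower and 0 were called, with a median of -0.42. Col17a1, a hemidesmosome collagen, was lower by 0.63 on the log2 scale (adjusted p = 0.0481), below the fold threshold.

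Markers of white blood cells moved in part with these genes. Of 12 neutrophil genes 3 rose (0.499% of all genes rose), S100a9, Lcn2 and Cxcr2. At least the first 2 of these are also made by activated keratinocytes, and which cells carried any of the 3 rises was not tested. S100a9, a subunit of the calcium-binding protein calprotectin, read 8.73, 8.46, 6.26, 8.42, 8.58 and 7.10 at 1008 h and 6.29, 4.67, 5.83 and 5.57 untreated (2.36 ± 0.50, adjusted p = 0.0398). Array 3 was just below untreated array 1, and the other 5 were above all untreated arrays.

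Cxcr2, the receptor for neutrophil-attracting chemokines, read 8.06, 7.62, 6.94, 8.35, 8.16 and 6.39 at 1008 h, against 6.06, 5.29, 5.54 and 5.38 untreated, with no overlap (2.02 ± 0.37, limma adjusted p = 0.0340). S100a8, the partner of S100a9, did not pass (2.30 ± 0.58, adjusted p = 0.0532), and the other 8 neutrophil genes lay between -0.22 and 0.41. Of 22 cytokine and chemokine genes 1 rose (0.499% of all genes rose), Ccl20, which attracts Langerhans cell precursors and Th17 cells. It read 8.79, 9.28, 7.89, 8.71, 8.56 and 7.56 at 1008 h and 6.80, 6.51, 6.73 and 6.95 untreated (1.79 ± 0.25, adjusted p = 0.0266). None of 15 macrophage, 13 T lymphocyte, 12 mast cell or 11 Langerhans and class II genes was called; the macrophage score ran from -0.34 to 0.75 at 1008 h and from -0.54 to -0.02 untreated, and its part in the rises was not tested.

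Genes of mitosis were higher as a group while those of DNA replication were near 0. All 21 measured mitosis genes were higher at 1008 h, with a median log2 change of 0.70, 15 had an adjusted p under 0.05 without a fold threshold (by that rule 417 of all genes were higher, 2.22%, and 255 lower, 1.35%) and 2 passed both thresholds. The median was 0.64 in batch 2 and 0.77 in batch 3. Of 16 replication genes 13 were higher and 0 were called, with a median of 0.08; the largest changes were in Ccne1, the S phase cyclin E1 (0.29 ± 0.12), and in Gins1, a subunit of the replicative helicase (0.29 ± 0.14).

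Cenpe, a kinesin of the kinetochore, read 7.36, 7.62, 7.32, 7.08, 6.94 and 6.43 at 1008 h, against 5.72, 6.12, 5.88 and 6.73 untreated. Array 6 lay between untreated arrays 2 and 4 and the other 5 were above all untreated arrays. The change was 1.11 ± 0.17 (limma, adjusted p = 0.0266). Bub1, a kinase of the spindle checkpoint, changed by 1.09 ± 0.17 (adjusted p = 0.0266). In the model of 66 arrays each of these 2 genes was called in 6 of the 10 fits that left out 1 array. Rises described above differed in this respect. Il1f6, Chil1 and Sprr2a1 were called in all 10 such fits, Lcn2 in 4, S100a9 and Csta3 in 3, Ccl20 in 2 and Casp14 in 1.

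Kif11, the kinesin that pushes spindle poles apart, was higher by 0.86 ± 0.13, and cyclin A2 (Ccna2) by 0.86 ± 0.13, each at an adjusted p of 0.0266 but under the fold threshold. No mitosis gene had all 6 arrays above all 4: untreated array 4 had the highest score of its group, -0.01, and 1008 h array 6 the lowest of its group, -0.24, while 1008 h arrays 1 and 2 scored 0.56 and 0.61.

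**Figure D2:**
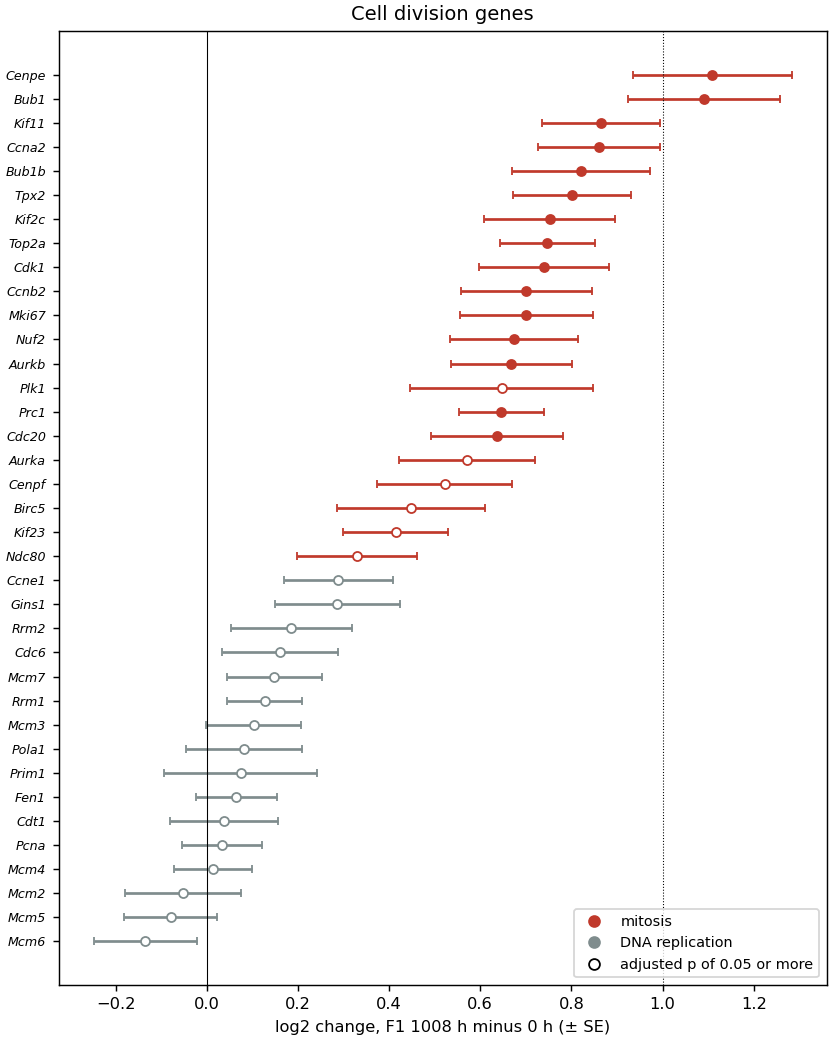
Log2 change at 1008 h against 0 h in F1 skin (horizontal axis, ± SE of the fit) of 21 mitosis genes (red) and 16 DNA replication genes (grey), with filled points at an adjusted p under 0.05 and a dotted line at the fold threshold. The mitosis genes lie to the right of 0, led by Cenpe and Bub1, and the replication genes lie around 0.

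Promoters of Cenpe, Bub1 and Kif11 are shown because genes of late cell cycle phases are known for CCAAT boxes, which bind the factor NF-Y. For Ccna2, also described above, no promoter entry was found under its symbol. The lines give the 150 bases before the start of each gene, in the direction of transcription, from RefSeq (GRCm38.p6), with CCAAT or its reverse complement ATTGG in capitals. Bub1 is on the minus strand (chr2:127831860-127832009), and Cenpe (chr3:135212413-135212562) and Kif11 (chr19:37376232-37376381) are on the plus strand.
Cenpe: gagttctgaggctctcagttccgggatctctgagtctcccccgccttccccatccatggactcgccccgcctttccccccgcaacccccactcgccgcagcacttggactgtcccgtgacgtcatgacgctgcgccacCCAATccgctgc
Bub1: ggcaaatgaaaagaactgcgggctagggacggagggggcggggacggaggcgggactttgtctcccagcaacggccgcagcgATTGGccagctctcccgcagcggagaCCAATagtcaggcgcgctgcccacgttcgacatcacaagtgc
Kif11: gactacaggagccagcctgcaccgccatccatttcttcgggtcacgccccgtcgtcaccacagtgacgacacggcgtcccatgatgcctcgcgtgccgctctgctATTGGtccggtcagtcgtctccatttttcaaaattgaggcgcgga
The match of Cenpe begins 12 bases before the start, those of Bub1 68 and 42 bases, and that of Kif11 45 bases. Within 250 bases before the start, 14 of 18 mitosis genes in the table held CCAAT on either strand (77.8%), as did 10 of 14 replication genes (71.4%) and 5764 of all 14749 tested genes in the table (39.1%). Both lists held it more often than all genes did, and the replication list had a median change near 0. A match is a run of letters and not a shown binding site.

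Among the falls were genes of the body clock. Of 13 clock genes 11 were lower, with a median log2 change of -0.71 (-0.55 in batch 2 and -1.05 in batch 3), and 4 fell. Over all 18820 genes 9419 were lower and 38 fell (0.202%). Per2, a repressor of the clock, read 6.10, 5.57, 6.16, 6.28, 5.60 and 7.24 at 1008 h, against 7.27, 7.47, 8.21 and 7.19 untreated. Array 6 lay just above the lowest untreated array and the other 5 below all of them (-1.46 ± 0.29, limma, adjusted p = 0.0355). The repressor Cry2 fell by 1.07 on the log2 scale (adjusted p = 0.0343), and Tef by 1.12 and Hlf by 1.01, both output factors of the clock. The clock genes follow the time of day, which the labels do not give, so time of day and exposure cannot be told apart.

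The immediate early genes, which respond to a stimulus within the hour, held no called rise. Of 15 such genes 2 fell (0.202% of all genes fell). Fosb, an AP-1 subunit, read 5.50, 5.01, 4.88, 5.01, 4.98 and 5.77 at 1008 h and 7.08, 6.03, 7.18 and 7.44 untreated, with all 6 below all 4 (-1.76 ± 0.27, limma, adjusted p = 0.0266). Atf3, a stress-induced factor, likewise had no overlap (-1.12 ± 0.18, adjusted p = 0.0266). Egr2, a zinc finger factor, was higher by 0.68 ± 0.13 (adjusted p = 0.0355), under the fold threshold.

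Cyp1a1, the enzyme induced through the aryl hydrocarbon receptor, read 5.96, 6.71, 6.67, 6.35, 6.76 and 6.75 at 1008 h, against 7.52, 8.56, 8.15 and 8.53 untreated. The groups were well apart, with 1008 h array 1 the lowest (-1.63 ± 0.22, limma, adjusted p = 0.0266). Of the 14 NRF2 and xenobiotic genes it was the only one called. Usp18, which removes the interferon-induced modifier ISG15 from proteins, fell by 1.39 on the log2 scale (adjusted p = 0.0266) and was the only one called of 16 interferon genes, whose median change was 0.04.

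Over all 18820 genes 9419 were lower and 38 fell (0.202%), and the next counts stand beside these. Of 13 follicle stem cell genes 12 were lower and 1, Fgf18, fell, with a list median of -0.31. Of 18 hair matrix regulators 15 were lower and 1, Bmp4, fell, with a median of -0.18. Of 23 Wnt and BMP regulators 19 were lower and 1, Bmp2, fell, with a median of -0.28. Fgf18, a growth factor that holds follicles at rest, read 5.33, 5.79, 6.94, 6.24, 6.04 and 7.41 at 1008 h and 7.84, 8.03, 7.84 and 7.84 untreated. All 6 were below all 4, and arrays 3 and 6 were nearest to the untreated level (-1.69 ± 0.30, limma, adjusted p = 0.0311). Bmp2 fell by 1.08 (adjusted p = 0.0266) and Bmp4 by 1.23 (adjusted p = 0.0475) on the log2 scale; both encode bone morphogenetic proteins that act in the same resting phase. Lgr5, the receptor that marks cycling follicle stem cells, changed by -0.75 ± 0.17 (adjusted p = 0.0445).

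The other falls picked for naming were Fam171b (-1.47), the amino acid transporter Slc43a1 (-1.42), Csrnp2 (-1.35), the glycosyltransferase B4galnt2 (-1.34), carnosine synthase Carns1 (-1.24), the potassium channel Kcnma1 (-1.23) and the matricellular protein Ccn2 (-1.21). In each, all 6 arrays were below all 4, and their adjusted p-values by limma lay between 0.0266 and 0.0434. In the model of 66 arrays, Carns1 and Kcnma1 were called in 2 of the 10 fits that left out 1 array, Hlf in 3, and Ccn2 and Atf3 in 5. Fosb, Cyp1a1, Fgf18 and Per2 were called in all 10.

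The largest fall in size belonged to F830045P16Rik, whose symbol carries no function and which was named after its values were seen. It read 4.42, 4.09, 6.09, 5.07, 4.44 and 8.06 at 1008 h, against 8.13, 9.83, 8.75 and 9.61 untreated, with array 6 just under the untreated range (-3.78 ± 0.70, limma, adjusted p = 0.0354).

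The microRNA genes Mir708 and Mir365-1 were among the called falls and were named after their values were seen. The array reads their precursor transcripts and not the mature microRNAs, whose sequences from RefSeq (GRCm38.p6) are shown with the seed, bases 2 to 8, in capitals, to identify their targets' pairing region. Mir708 lies on the plus strand of chromosome 7 and Mir365-1 on the plus strand of chromosome 16.
mmu-miR-708-5p: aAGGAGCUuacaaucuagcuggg
mmu-miR-365-3p: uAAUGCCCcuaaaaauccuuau
The 2 seeds differ. Mir708 read 5.91, 6.43, 7.11, 6.84, 6.87 and 6.57 at 1008 h, against 7.44, 7.75, 7.45 and 8.01 untreated (-1.08 ± 0.21, limma, adjusted p = 0.0355). Mir365-1 read 5.77, 5.46, 6.38, 5.62, 5.59 and 6.49 at 1008 h, against 6.54, 7.06, 6.98 and 7.21 untreated (-1.07 ± 0.23, adjusted p = 0.0398). Neither microRNA overlapped between groups, and 1008 h array 6 was the nearest to untreated for Mir365-1 but not for Mir708.

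**Figure D3:**
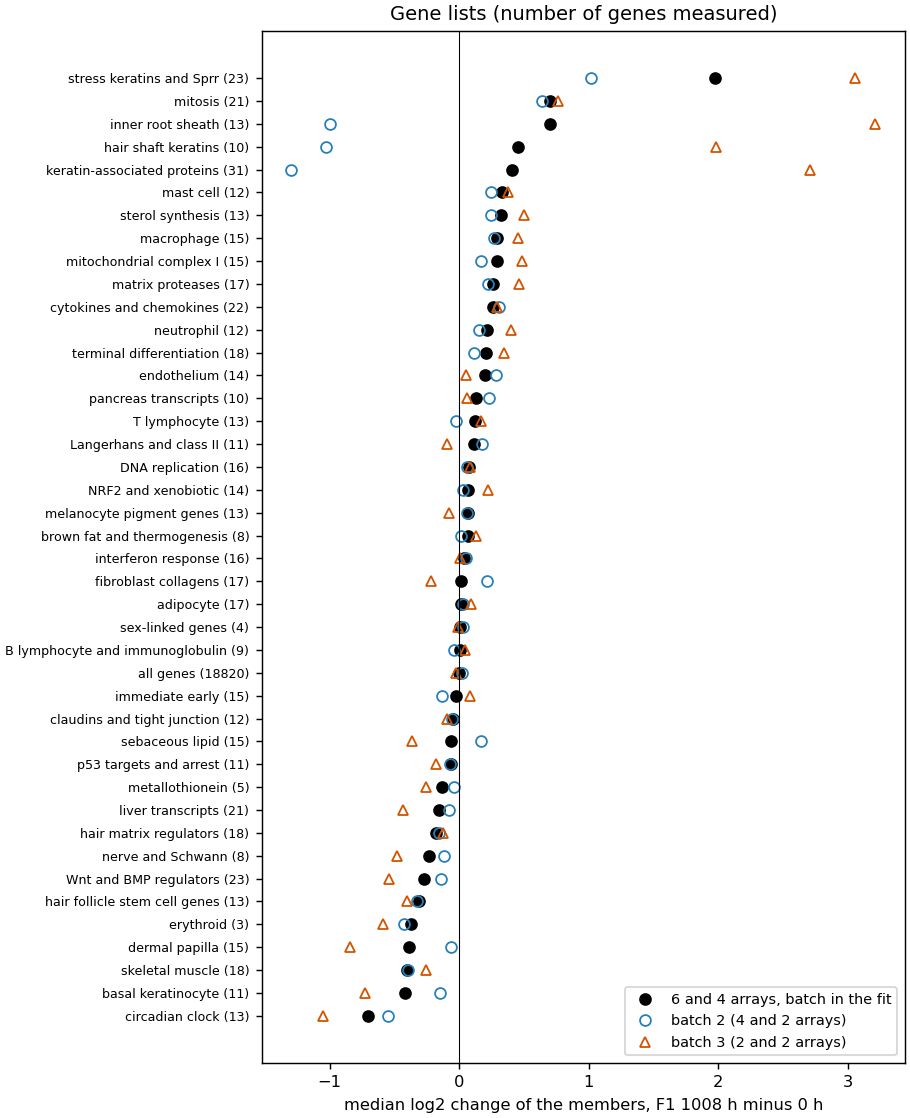
Median log2 change at 1008 h against 0 h in F1 skin (horizontal axis) over the measured members of each of 41 gene lists and over all genes (rows, number of genes in brackets), in the fit of all 10 arrays (black), in batch 2 alone (blue circles) and in batch 3 alone (orange triangles). Mitosis has about the same median in both batches, the stress list is higher in batch 3, and the 3 hair lists have opposite signs in the 2 batches.

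The 6 arrays at 1008 h differed among themselves by a typical SD of 0.19 per gene, the median over all genes, against 0.18 among the 4 untreated arrays, and 0.15 among the 4 arrays of batch 2 at 1008 h. An SD above 1 was found for 132 genes at 1008 h and for 117 untreated, with 86 in common. Of the 132, 41 were among the 54 measured hair keratin, inner root sheath and keratin-associated genes, 11 among 18 skeletal muscle genes and 10 among 23 stress genes. The called genes also numbered 132, and 17 genes were in both sets.

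The size of the difference from untreated skin varied by array. Over the 94 rises, the median difference from the untreated mean was 1.75 in array 1, 1.71 in array 2, 1.02 in array 3, 1.64 in array 4, 1.63 in array 5 and 0.55 in array 6. Array 6 was the lowest of the 6 in 79 of the 94 genes and array 3 in 12. Over the 38 falls the order was similar, from -1.81 in array 1 to -0.31 in array 6, and array 6 was nearest to untreated in 32 genes. The genes were called on these same arrays, so these values describe the arrays and test nothing. Without array 6, 296 genes were called and all 41 called genes that the rules named were still called. The stress list then had 17 called members and a median change of 2.15, the mitosis list 2 and 0.77, and the clock list 5 and -0.68. Without untreated array 1, 280 genes were called; the stress keratins and Sprr list had 12 called members and a median of 2.03, the mitosis list 2 and 0.73, and the circadian clock list 5 and -0.75.

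Hair keratins separated the arrays in another way. Krt33a, a hair shaft keratin, read 7.19, 9.05, 9.48, 4.72, 4.19 and 3.87 at 1008 h and 10.33, 3.38, 4.43 and 3.49 untreated. Arrays 1, 2 and 3 at 1008 h and array 1 among the untreated were high, and the others low, so the groups overlapped wholly (0.97 ± 1.57, limma, adjusted p = 0.768). Tchh, or trichohyalin, and Krt71, both of the inner root sheath, and Krtap15 and Krtap8-1, keratin-associated proteins, were high in the same 4 arrays, with array 4 at 1008 h intermediate for Tchh (8.03) and Krt71 (7.82), and had SDs of 2.12, 2.20, 2.67 and 2.51 at 1008 h, in that order.

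None of the 10 hair shaft keratins, 13 inner root sheath genes or 31 keratin-associated genes was called. The score of the keratin-associated genes was 0.52, 2.08, 1.45, -0.75, -0.96 and -0.98 in 1008 h arrays 1 to 6 and 2.81, -1.65, -1.04 and -1.49 in untreated arrays 1 to 4. Their batch medians had opposite signs, -1.30 in batch 2 and 2.71 in batch 3; untreated array 1 was in batch 2. With all arrays the median changes of the hair shaft keratins, inner root sheath genes and keratin-associated proteins were 0.46, 0.70 and 0.40. Their sign and size rested on single arrays. Without 1008 h array 2 the 3 medians were -0.12, -0.03 and -0.20, and without untreated array 1 they were 1.42, 2.31 and 1.85, with 2 keratin-associated genes then called. Without any other single array they lay between 0.06 and 0.58 for hair shaft keratins, 0.25 and 1.07 for inner root sheath genes and 0.04 and 0.74 for keratin-associated proteins.

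Ifitm6, an interferon-induced transmembrane family member, had the largest SD at 1008 h outside the hair lists, 2.13 against 0.43 untreated. It read 4.17, 4.48, 7.25, 4.59, 5.23 and 9.60 at 1008 h, against 9.01, 9.59, 8.72 and 9.56 untreated. Array 6 was as high as the untreated arrays, array 3 was between and the other 4 were low, and its change of -3.51 ± 0.90 missed the threshold (limma, adjusted p = 0.0544), while the model of 66 arrays called it (adjusted p = 0.000245).

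Muscle genes varied as much in both groups. Myh4, a fast myosin heavy chain, read 7.49, 5.19, 8.88, 4.94, 8.78 and 5.03 at 1008 h and 6.29, 4.73, 8.45 and 8.67 untreated (-0.42 ± 1.03, adjusted p = 0.853). The muscle score was highest in 1008 h array 5, 1.52, and lowest in untreated array 2, -1.32, with 0 of 18 genes called. The part of muscle in other results was not tested. The first principal component of the 6 arrays held 40.2% of their variance and put array 6 at one end, at a score of -32.9, and arrays 1 and 2, of batch 3, at the other, at 25.6 and 29.4.

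**Figure D4:**
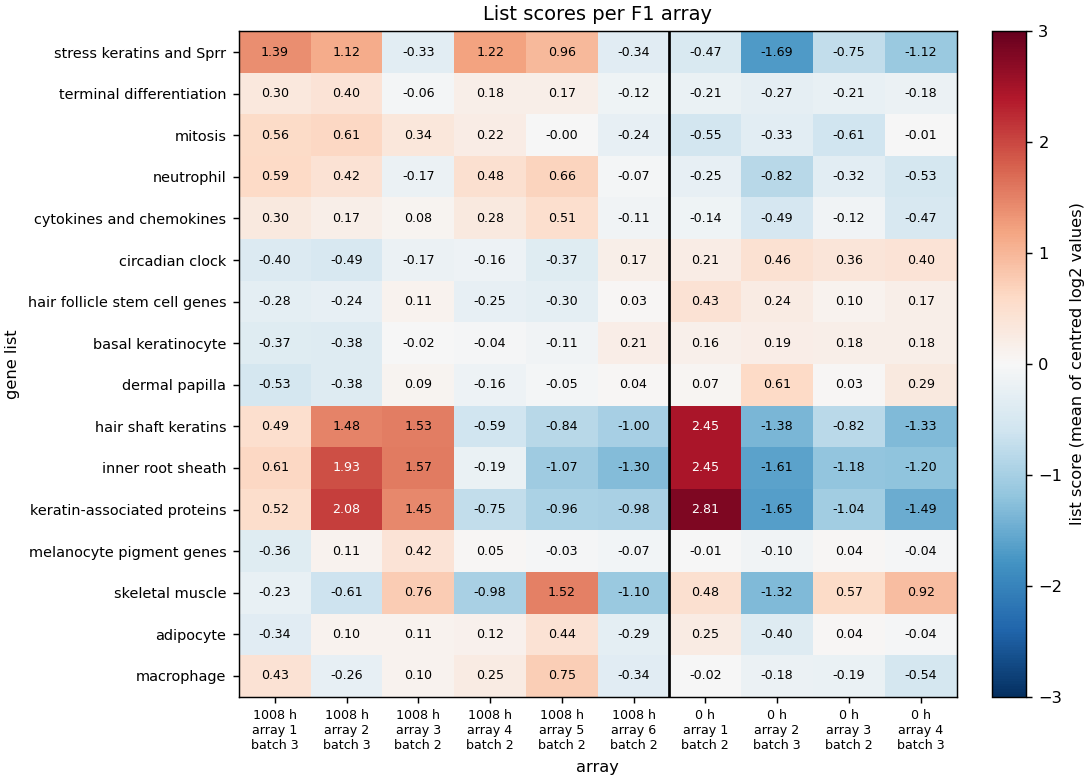
List score (colour and number: members' log2 values, centred on the 10 arrays and averaged) for 16 gene lists (rows) in the 6 F1 arrays at 1008 h (left of the line) and the 4 untreated F1 arrays (right of it). The hair lists are high in 1008 h arrays 1, 2 and 3 and in untreated array 1, and the stress list is high in 1008 h arrays 1, 2, 4 and 5.

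**Figure D5:**
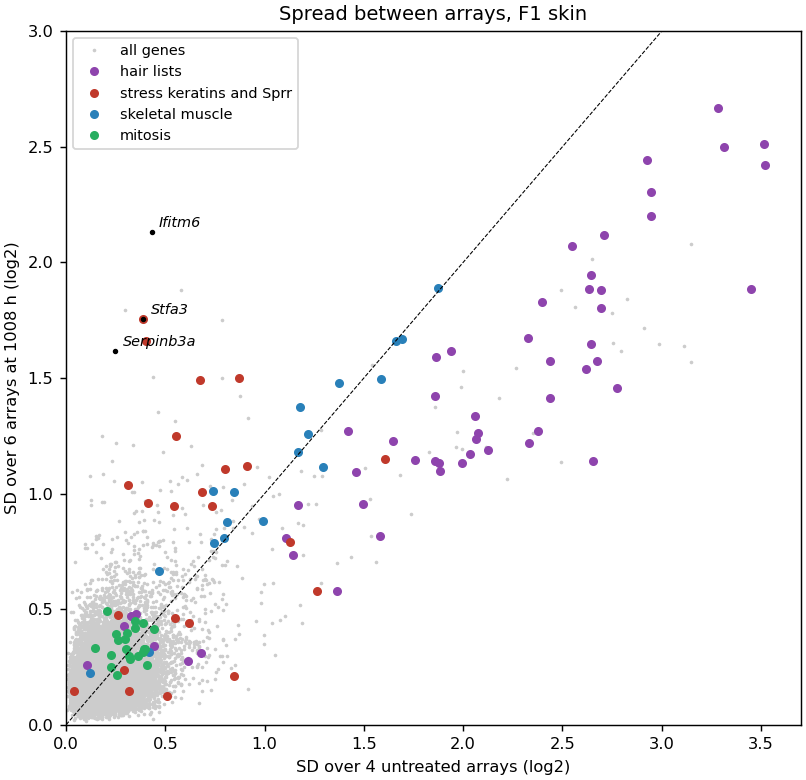
SD of log2 values over the 6 arrays at 1008 h (vertical axis) against the SD over the 4 untreated arrays (horizontal axis) for all 18820 genes (grey), with the hair lists, the stress list, muscle and mitosis coloured and a dashed line of equality. Hair genes vary in both groups, whereas Ifitm6, Stfa3 and Serpinb3a vary mainly at 1008 h.

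Against F1 skin at 48 h after TPA (3 arrays), 0 genes were called by limma in the model of 66 arrays (0% of 18820), with 701 at an unadjusted p under 0.05 and a lowest adjusted p of 0.100. This comparison uses the same 6 arrays at 1008 h as the one with untreated skin. At 1008 h minus 48 h the log2 difference was -0.67 for Il1f6, -0.62 for Sprr2a1, -0.93 for Cxcr2 and -2.55 for S100a9. The median was -0.85 over the stress list, -0.60 over mitosis and -0.51 over DNA replication, none of whose members was called, against 0.01 over all genes.

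The change at 1008 h was set against that in FVB/N, the laboratory parent strain (3 arrays at 1008 h against 3 untreated), as a difference of changes in the same model. It was called for 266 genes (1.41% of 18820), 99 more positive in F1 and 167 more negative in F1. All FVB arrays were batch 1 and all F1 arrays batch 2 or 3, so strain and batch cannot be told apart. The FVB untreated arrays differed widely in 21 liver transcripts. Scores centred on the FVB arrays compared were -1.95, 0.83 and 1.30 in untreated arrays 1, 2 and 3 and -0.18 to 0.04 at 1008 h. Which arrays held liver RNA was not tested. Without any 1 FVB array, 156 to 219 genes were called. Median centring moved the median difference of all genes to -0.07, against 0.04 before. It split its 267 calls into 69 positive and 198 negative.

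The hair lists led the negative differences, with 7 of 10 shaft keratins, 12 of 13 root sheath genes and 22 of 31 keratin-associated genes. Krt33a changed by 0.96 in F1 against 7.37 in FVB (difference -6.42, limma, adjusted p = 0.0198), and Tchh differed by -5.61 (adjusted p = 0.00866). These F1 changes include untreated array 1, where Krt33a read 10.33 against 3.38 to 4.43 in the other untreated arrays. With 1 array left out of the fit of 10, the F1 change of Krt33a ran from 0.04 to 3.11. The calls rested on few arrays in both strains. Without F1 untreated array 1, 85 of all genes were called more negative in F1, and without any 1 FVB array 98 to 130, against 167 with all arrays. How many hair and stress genes were among them was not counted. Of the stress list, 6 of 23 were more negative in F1, and the list had a median difference of -2.08 beside a median change of 3.78 in FVB. Il1f6 changed by 2.71 in F1 against 5.34 in FVB (difference -2.63, adjusted p = 0.0108), and S100a9 differed by -3.76 (adjusted p = 0.0249).

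In the other direction, Cxcl9, an interferon-induced chemokine, changed by 0.62 in F1 against -3.05 in FVB (difference 3.67, adjusted p = 0.00970), and Scd3, a fatty acid desaturase, by -0.84 in F1 against -3.87 in FVB (difference 3.03, adjusted p = 0.0191). The difference of the mitosis list had a median of -0.19 with 0 of 21 called, beside a median change of 0.87 in FVB.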

How the data were processed

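Expression in F1 dorsal skin was measured on Affymetrix arrays. The deposited log2 values for 35556 probe sets were made by the authors with RMA, per the submitters' processing notes, which give no version. The sources used here do not say whether batches were corrected. Of the probe sets, 21218 had 1 gene symbol in the platform annotation, 1881 had several and were not used, and 12457 stay unnamed. Where several probe sets shared a symbol, the one brightest on average over 66 assigned arrays stood for the gene, leaving 18820 genes.

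The 10 arrays were fitted with limma (version 3.58.1, R version 4.3.3; moderated two-sided tests, Benjamini-Hochberg adjustment) with a term for batch, leaving 7 residual degrees of freedom. The model of 66 arrays (27 group means and a batch term, 38 residual degrees of freedom) gave the comparisons with 48 h and FVB. The fit was tested on simulated data.

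The genes to name were the 15 largest called rises and 15 largest called falls with ordinary symbols whose 6 arrays lay beyond all 4, at most 4 genes per list by size of change, every member of a list of 13 genes or fewer, the 15 largest SDs, and the 5 largest called changes in each direction of the other comparisons. The rule and the 41 gene lists were chosen with earlier results of these data known. No 2 of the arrays held identical values. The number of arrays limits the precision.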

Additional observations from a re-analysis of the deposited data

Results flagged for a closer look

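In groups of 4 or 6 arrays, an array far from the others by Dixon's test was found 14 times in 160 groups of values. For independent groups chance gives about 1 in 20. The genes here were those chosen for the text, and the hair flags share 1 array, so that rate is no measure of this count. At 1008 h the array was number 6 in each case: Usp18 read 6.66, B4galnt2 5.38 and Flt1 6.35 there, nearer to untreated skin than the other 5 arrays were. Untreated array 1 stood apart in the hair genes, with Krt33a at 10.33, Krt71 at 11.05 and Tchh at 11.36, and in the scores of hair shaft keratins (2.45), inner root sheath genes (2.45) and keratin-associated proteins (2.81); Casp14 was lowest there, at 10.23. Untreated array 2 was highest for Fgf18 (8.03), B4galnt2 (6.17) and Carns1 (8.75), and untreated array 3 for Eif2s3y, at 2.85, a difference of small size.

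The change at 1008 h differed between F1 and FVB in 266 genes by limma's test of the difference, among them 10 that the text names. It was more negative in F1 for Krt33a (-6.42), Krt71 (-5.79), Tchh (-5.61), S100a9 (-3.76), Serpinb3a (-3.13), Il1f6 (-2.63) and Igfl3 (-1.94), and more positive for Cxcl9 (3.67), Scd3 (3.03) and Carns1 (2.75). Their adjusted p-values by that test lay between 0.00327 and 0.0468. All FVB arrays were batch 1, so strain and batch cannot be told apart. Without F1 untreated array 1, which stood apart in Krt33a, Krt71 and Tchh, 135 genes were called.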

How the results depend on the processing

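All 132 genes kept their sign in every fit that left out 1 array, and the 41 called genes that the rules named kept theirs under all 35 alternatives. These genes were called on the same arrays, 81 of the 132 with no overlap between groups. Their signs were thus close to fixed beforehand and test nothing. The count of calls moved widely. Left-out arrays gave 0 to 296 calls in the fit of 10 arrays and 63 to 255 in the model of 66 arrays, an alternative added after the data were seen (211 without untreated array 1, 83 without untreated array 4, 70 without 1008 h array 1 and 84 without 1008 h array 2). Batch 2 alone gave 0 and batch 3 alone 961, no fold threshold gave 672, and a replicate block gave 242. Whether replicate numbers pair the samples is not known, so the block is given only here. Correlations of deviations from the group means were 0.26, -0.30, -0.24 and 0.00 for numbers 1 to 4. Batch was not removed from them, so they cannot settle it. The other 11 alternatives gave 97 to 193 calls. For 1008 h against 48 h, with 0 calls, leaving out 2 arrays of narrow range elsewhere in the series gave 2, the 25 F1 arrays gave 1, cyclic loess gave 2, a replicate block gave 27 and left-out arrays gave 0 to 4. For F1 minus FVB, with 266 calls, leaving out those narrow arrays gave 624, cyclic loess 582, a replicate block 162, left-out arrays 135 to 316 (135 without F1 untreated array 1, 158 without FVB untreated array 2, and 156, 173 and 158 without FVB 1008 h array 1, 2 and 3), and leaving out the 2 FVB untreated arrays with liver transcripts, also added later, 9; median centring gave 267 in another split. The causes of these shifts were not tested. The median SD at 1008 h was 0.15 to 0.19 under its alternatives.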

Other observations

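Metabolic genes not described so far were slightly higher at 1008 h. All 13 measured genes of sterol synthesis were higher, with a median log2 change of 0.32 (0.24 in batch 2 and 0.50 in batch 3), and all 15 genes of mitochondrial complex I were higher, with a median of 0.29 (0.17 in batch 2 and 0.49 in batch 3). None of either list was called; of the complex I genes 2 had an adjusted p under 0.05 by limma without a fold threshold. The sterol score ran from -0.04 to 0.31 at 1008 h and from -0.22 to -0.10 untreated, and the complex I score from 0.00 to 0.29 at 1008 h and from -0.31 to -0.05 untreated.

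Dermal papilla and endothelial genes had 0 called members each in the fit of 10 arrays and 1 each in the model of 66 arrays. Of 15 dermal papilla genes 14 were lower, with a median of -0.39 (-0.07 in batch 2 and -0.84 in batch 3). Rspo3, a secreted enhancer of Wnt signalling, changed by -1.25 ± 0.33 (limma, adjusted p = 0.0575), and the model of 66 arrays called it as lower (adjusted p = 0.00501). Of 14 endothelial genes 13 were higher, with a median of 0.20 (0.28 in batch 2 and 0.05 in batch 3), and Flt1, a receptor for vascular endothelial growth factor, changed by 1.01 ± 0.28 (limma, adjusted p = 0.0650), a change that the model of 66 arrays called (adjusted p = 0.00646). Melanocyte pigment genes had a median change of 0.07, and adipocyte genes one of 0.01.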
